A study of Oryza sativa with 12 samples.

Results

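The cell cycle genes followed here were 8 loci of the rice genome, taken by identifier from a list of core division genes, out of 55986 loci in the expression table. They comprised 3 mitotic cyclins (CYCB1;1, CYCB2;1 and CYCB2;2), the plant-specific mitotic kinases CDKB1 and CDKB2, the core kinases CDKA1 and CDKA2, and the replication clamp PCNA. All 8 were listed in the table, and 5 passed the filter on low values used for testing, a mean of at least 1 FPKM (sequenced fragments scaled for gene length and library size) over the 12 libraries. The 3 cyclins did not pass it.

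A plant cell enters mitosis when B-type cyclins bind cyclin-dependent kinases. CDKA is made throughout the cycle, whereas CDKB and the B-type cyclins are made around the entry into mitosis, and PCNA encircles DNA as a sliding clamp for the replicative polymerase. In grasses the intercalary meristem at the base of each internode supplies the dividing cells that lengthen the culm. The genes of this set other than CDKA1 and CDKA2 are used as markers of such division.

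Poly(A) RNA was sequenced from culms, the jointed stems of rice, of the japonica cultivar Zhonghua 11 at heading, when the panicle emerges. The series title concerns brittle culms of plants lacking TAC4, a gene known for control of tiller angle, and its relative TAC4L. There were 4 groups of 3 libraries. WT was unmodified Zhonghua 11, TAC4-KO was altered in TAC4 (LOC_Os02g25230), TAC4L-KO was altered in TAC4L (LOC_Os04g19140), and the line altered in both genes is called double-KO here. The titles and the design text call the lines knockouts, while the genotype field calls them knockdowns, and neither gives the number of independent lines, the internode or the part of it that was sampled. Whether the replicate libraries came from different plants is not stated, so the p-values reflect the scatter among these libraries alone, and that scatter could be technical.

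The depth inferred from the FPKM values was 9.8 to 25.2 M fragments (M, mega) per library, and 24717 to 26972 loci had a value above 0. TAC4 transcripts averaged 5.89 FPKM in WT and 15 FPKM in the double-KO, and rose there by 1.23 on the log2 scale (limma, adjusted p = 0.00041). TAC4L stayed below 1 FPKM in all 12 libraries, so transcript levels of the targeted genes gave no check of the labels. Scaling the libraries by the median of ratios, or normalizing quantiles, moved the median change of all genes in double-KO against WT from -0.1 to -0.01 and 0.08. The share of calls that were lower in that comparison moved from 57.6% to 50.9% and 44.4%.

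The 3 mitotic cyclins were low in every genotype. Their levels gave little ground for the working name of the set, cell cycle genes of an intercalary meristem. CDKB1, CDKB2 and PCNA were higher, with WT means of 6.8, 3.1 and 15.8 FPKM. CYCB1;1 and CYCB2;1 were detected in WT, with 41 and 67 fragments over its libraries, while CYCB2;2 had at most 5. The highest value of any cyclin in any library was 1.18 FPKM, and the lowest value of CDKB2, the least abundant of the other members, was 1.78 FPKM. KNOX homeobox genes, which mark meristems and also the young internode in rice, were by contrast plentiful in WT, where OSH1, OSH15, OSH71 and OSH43 summed to 236 to 314 FPKM. In these bulk samples, fewer dividing cells and less RNA per dividing cell cannot be told apart.

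CYCB1;1 (LOC_Os01g59120), a B-type cyclin widely used as a marker of the passage into mitosis, was listed at 0, 0.515 and 0.488 FPKM in WT and at 0.194, 0.23 and 0.12 FPKM in TAC4L-KO. In TAC4-KO its values were 0.03, 0.42 and 0.119 FPKM, and in the double-KO 0.266, 0.183 and 0.598 FPKM. The ranges of the 4 genotypes overlapped, and WT itself held both the library at 0 and one of the highest values. The values corresponded to 41 fragments over the WT libraries, 16 over TAC4L-KO, 20 over TAC4-KO and 35 over the double-KO. The count of 0 in WT replicate 1 had an upper 95% Poisson limit of 3.689 fragments, which covers counting error only. At that depth, 3 fragments would be 0.157 FPKM.

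CYCB2;1 (LOC_Os04g47580), a cyclin of the second B class, was at 0.506, 0.342 and 1.18 FPKM in WT and at 0.707, 0.106 and 0.0322 FPKM in TAC4L-KO. It was at 0, 0.258 and 0.0255 FPKM in TAC4-KO and at 0.214, 0 and 0.0356 FPKM in the double-KO. All 3 WT libraries lay above all 3 libraries of TAC4-KO and of the double-KO, while TAC4L-KO spanned both ranges. The WT libraries held 67 fragments of it (95% Poisson interval 51.9 to 85.1, counting error only), against 7 (2.8 to 14.4) in the double-KO, 9 (4.1 to 17.1) in TAC4-KO and 21 (13 to 32.1) in TAC4L-KO. Of the 13365 loci that had a value but missed the filter, 15.5% were lower without overlap in the double-KO than in WT, and 9.97% were so in TAC4-KO. A locus at 0 in any WT library cannot be lower without overlap, and such loci were kept in these shares. Among the genes that passed the filter, the shares were 30.6% and 22.9%. When all 32549 loci with a value were tested, the change of CYCB2;1 was -0.6 on the log2(FPKM + 1) scale in double-KO against WT (SE 0.22, limma adjusted p = 0.059) and -0.59 in TAC4-KO against WT (adjusted p = 0.081). Neither reached the threshold of 0.05.

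CYCB2;2 (LOC_Os06g51110), the other cyclin of that class, was the scarcest member. It was at 0.0764, 0 and 0.0237 FPKM in WT, at 0, 0.0639 and 0 FPKM in TAC4L-KO, and at 0, 0.0292 and 0.0462 FPKM in TAC4-KO. The double-KO had 0.162, 0.0198 and 0.194 FPKM, so that 2 of its 3 libraries held the highest values of the series and the third overlapped the other genotypes. Those values amounted to at most 24 fragments over the double-KO libraries and at most 4 to 6 in each other genotype. With no filter, its difference between double-KO and WT was 0.12 on the log2(FPKM + 1) scale (limma, adjusted p = 0.13). None of the 3 cyclins was called in any of the 7 comparisons of that unfiltered test.

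**Figure D1:**
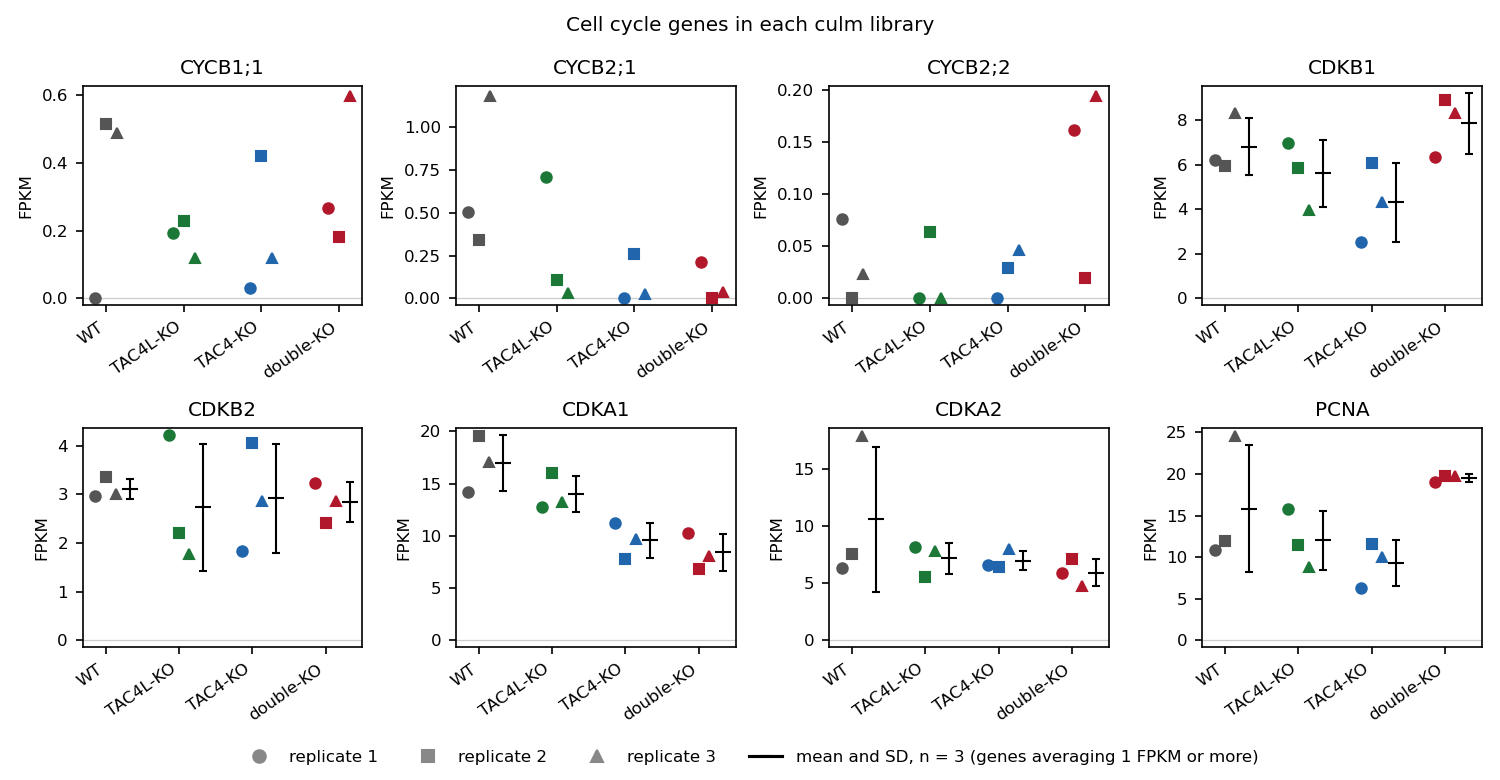
FPKM of the 8 cell cycle genes in each of the 12 culm libraries, 1 panel per gene with its own linear axis; points are libraries, and bars give the mean and SD (n = 3) for the 5 genes averaging 1 FPKM or more. The cyclins stay at or below 1.18 FPKM, CDKA1 steps down from WT to the double-KO, and the 3 double-KO values of PCNA lie close together near 19.5 FPKM.

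The other 5 members were transcribed at ordinary levels. Averaged over the 12 libraries, PCNA had 14.2 FPKM, CDKA1 12.3, CDKA2 7.67, CDKB1 6.14 and CDKB2 2.9. FPKM is scaled for length, so these levels may be set side by side, but neighbours in that order overlapped over the libraries, and only CDKB2 and the most abundant cyclin did not. Among the tested genes, 61.5% had a lower mean than PCNA and 19% a lower mean than CDKB2.

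Between genotypes, changes were tested with limma on log2(FPKM + 1) over 19184 genes, with all 12 libraries in 1 fit, and called at an adjusted p (Benjamini-Hochberg) under 0.05. Fold changes on that scale understate the change of low genes. In double-KO against WT, 1 of the 5 tested members was called, CDKA1, which was lower. Of all tested genes, 47.4% were called there in either direction, 27.3% lower and 20.1% higher. The 5 tested members are too few to tell their share apart from these. The median change was -0.1 for the tested members and -0.1 for all genes. In TAC4-KO against WT, 1 of 5 was called, again CDKA1 and again lower, where 34.9% of all genes were called and 16.5% were lower, and the members' median of -0.6 stood beside 0.04 for all genes. In TAC4L-KO against WT none of the 5 was called, where 7.18% of all genes were; none of the 5 had an unadjusted limma p under 0.05 there. These 3 comparisons share the WT libraries.

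CDKA1 (LOC_Os03g02680), the core kinase that drives both the entry into DNA replication and mitosis, was at 14.2, 19.6 and 17.1 FPKM in WT and at 12.8, 16 and 13.2 FPKM in TAC4L-KO. Its values were 11.2, 7.84 and 9.74 FPKM in TAC4-KO and 10.3, 6.85 and 8.12 FPKM in the double-KO. Every TAC4-KO and double-KO library lay below every WT and TAC4L-KO library. Within these pairs of genotypes the ranges overlapped. Lower values without overlap were common, at 30.6% of tested genes in double-KO against WT, 22.9% in TAC4-KO against WT, 35.1% when the double-KO was set against TAC4L-KO and 19% when TAC4-KO was.

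The means of CDKA1 were 17 ± 2.74 FPKM in WT, 14 ± 1.75 for TAC4L-KO, 9.59 ± 1.69 for TAC4-KO and 8.43 ± 1.76 for the double-KO (SD, n = 3 each). It fell by 0.93 in double-KO against WT (SE 0.2, 95% interval -1.36 to -0.51, limma adjusted p = 0.0025), a 2.01-fold difference of means. In TAC4-KO against WT it fell by 0.76 (SE 0.2, limma adjusted p = 0.012), a 1.77-fold difference of means. Both calls held in 21 of 21 processing settings, with changes of -1.08 to -0.75 and of -0.88 to -0.64. Against TAC4L-KO, the double-KO was lower by a change of -0.68 (limma adjusted p = 0.02), where 35% of all genes were called and 23.4% were lower. That call was lost under median-of-ratios scaling (-0.47, adjusted p = 0.058) and quantile normalization (-0.42, adjusted p = 0.083). It was also lost without TAC4L-KO replicate 2 (-0.59, adjusted p = 0.087), without double-KO replicate 2 (-0.56, adjusted p = 0.078) and without double-KO replicate 3 (-0.66, adjusted p = 0.06).

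The single mutants differed from each other in CDKA1 by -0.51 (TAC4-KO against TAC4L-KO, limma adjusted p = 0.16). The double-KO and TAC4-KO differed by -0.17 (95% interval -0.6 to 0.26, limma adjusted p = 0.61). The interaction, the change in the double-KO beyond that of TAC4-KO and TAC4L-KO added together, was 0.08 (95% interval -0.52 to 0.69, limma adjusted p = 0.86).

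Several markers of tissue composition also differed between genotypes, not all of them where CDKA1 did. Of 4 KNOX genes, OSH15 and OSH43 were lower, OSH71 was higher and OSH1 was not called in double-KO against WT, and their summed level was 126 to 186 FPKM in the double-KO against 236 to 314 in WT. In TAC4-KO, where CDKA1 was also low, the KNOX sum of 237 to 254 FPKM lay inside the WT range, and TAC4L-KO had 229 to 348. OSH15 makes up most of these sums, and OSH43 on its own fell by 1.61 in TAC4-KO against WT (limma adjusted p = 0.0047), from a mean of 12.8 to 3.39 FPKM. The secondary wall cellulose synthases CESA4, CESA7 and CESA9 were all lower in the double-KO, with sums of 38 to 92.7 FPKM against 598 to 1040 in WT, 501 to 1370 in TAC4-KO and 1010 to 1660 in TAC4L-KO. The 4 green tissue markers summed to 3410 to 7400 FPKM in WT, 5410 to 5990 for TAC4L-KO, 9890 to 11500 for TAC4-KO and 5730 to 7040 for the double-KO, sums in which the Rubisco gene RBCS weighs heavily. The light-harvesting gene LHCB was at 51.2 to 235 FPKM in WT, 241 to 431 for TAC4L-KO, 4490 to 5370 for TAC4-KO and 2970 to 3330 for the double-KO. It thus divided the genotypes where CDKA1 did, in the opposite direction. So did CAB1R, at 2.21 to 3.43, 1.28 to 7.6, 10.4 to 105 and 8.57 to 41.1 FPKM. CAB2R did not, with the double-KO at 533 to 937 FPKM and TAC4L-KO at 417 to 848, and neither did RBCS. The share of tested genes that divided so was not computed. In double-KO against WT, LHCB rose by 4.58 (limma adjusted p = 3e-05) and CAB1R by 2.56 (limma adjusted p = 0.016), RBCS fell by 0.99 (limma adjusted p = 0.019) and CAB2R was not called. In TAC4-KO against WT, LHCB rose by 5.22 (limma adjusted p = 0.00011), CAB1R by 3.14 (limma adjusted p = 0.0089) and CAB2R by 2.3 (limma adjusted p = 0.002). RBCS was not called there. The 5 floral MADS-box genes summed to 346 to 553, 586 to 716, 586 to 685 and 747 to 803 FPKM in the same order, with MADS4 listed at 0 in 6 libraries. MADS14 makes up most of that sum, and in double-KO against WT MADS14 rose by 0.82 (limma adjusted p = 0.0059), MADS16 rose by 1.85 (limma adjusted p = 8.1e-05) and MADS15 changed by -0.07 (limma adjusted p = 0.81). The part of these differences in the CDKA1 result was not tested.

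CDKA2 (LOC_Os02g03060), the second core kinase gene, was at 6.32, 7.6 and 17.9 FPKM in WT and at 8.14, 5.58 and 7.8 FPKM in TAC4L-KO. It was at 6.59, 6.39 and 7.97 FPKM in TAC4-KO and at 5.9, 7.12 and 4.76 FPKM in the double-KO. WT replicate 3 stood alone above 8.14 FPKM, and apart from it the genotypes overlapped. CDKA2 was called in none of the 7 comparisons. Its change in double-KO against WT was -0.63 (95% interval -1.3 to 0.04, limma adjusted p = 0.11), and it passed the threshold only without WT replicate 1 (-0.89, adjusted p = 0.034). Without WT replicate 3, its change was -0.21 in that comparison (limma adjusted p = 0.45), 0 in TAC4-KO against WT, where it was -0.41 with all libraries, and 0.03 in TAC4L-KO against WT, where it was -0.39.

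**Figure D2:**
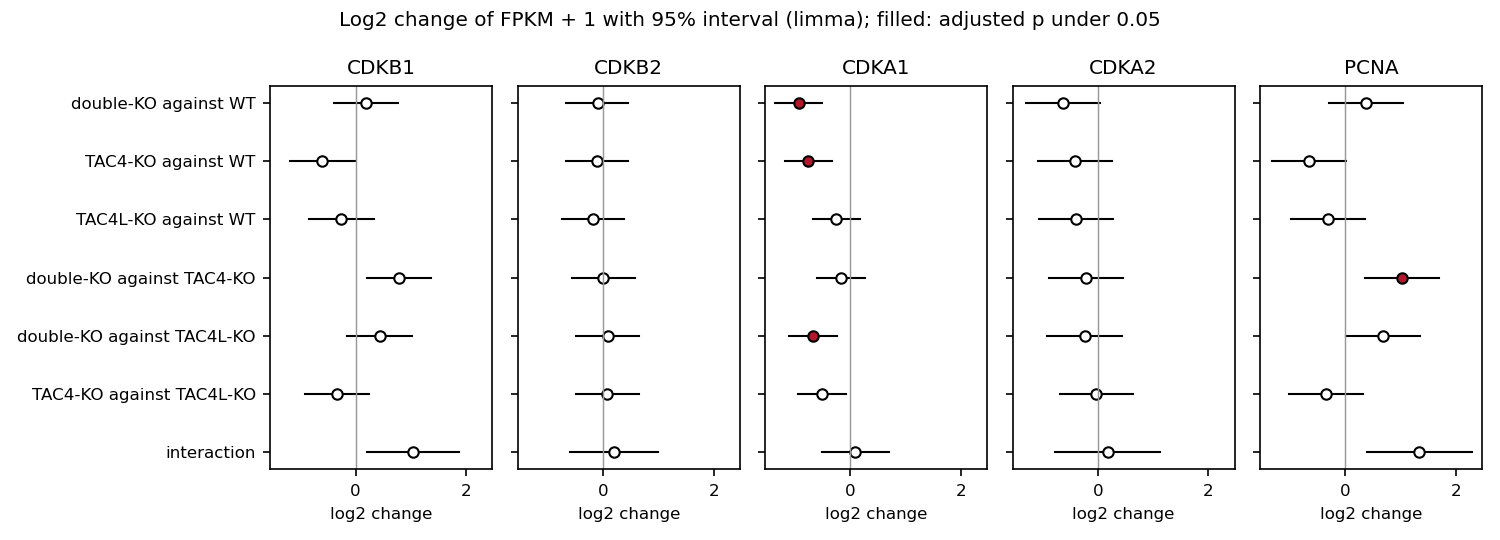
Log2 change of FPKM + 1 (horizontal axis, points) with the 95% interval from limma (lines) for the 5 tested genes in the 7 comparisons (vertical axis); filled points passed an adjusted p of 0.05. CDKA1 is filled in 3 comparisons, from -0.93 to -0.68, and PCNA in 1, at 1.03, while CDKB1, CDKB2 and CDKA2 have no filled point.

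CDKB1 (LOC_Os01g67160), a kinase found only in plants that peaks from late replication to mitosis, was at 6.2, 5.92 and 8.29 FPKM in WT and at 6.97, 5.86 and 3.97 FPKM in TAC4L-KO. Its values were 2.53, 6.08 and 4.33 FPKM in TAC4-KO and 6.32, 8.89 and 8.3 FPKM in the double-KO. The double-KO lay above TAC4-KO without overlap, which 14.7% of tested genes did, and WT overlapped every mutant. CDKB1 differed by 0.78 in double-KO against TAC4-KO (95% interval 0.2 to 1.36, limma adjusted p = 0.07) and by -0.6 in TAC4-KO against WT (limma adjusted p = 0.1). The first difference passed the threshold under median-of-ratios scaling (0.91, adjusted p = 0.045), under quantile normalization (0.96, adjusted p = 0.036) and without TAC4-KO replicate 2 (1.01, adjusted p = 0.037). The second passed without that library alone (-0.83, adjusted p = 0.037). Without TAC4-KO replicate 1 the same differences were 0.51 and -0.33 (limma adjusted p = 0.26 and 0.36). The interaction for CDKB1 was 1.03 (SE 0.38, limma adjusted p = 0.082), and it passed under median-of-ratios scaling (1.27, adjusted p = 0.049), under quantile normalization (1.27, adjusted p = 0.046) and without TAC4-KO replicate 2 (1.27, adjusted p = 0.043).

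CDKB2 (LOC_Os08g40170), the mitotic kinase most tightly tied to cell division in rice and Arabidopsis, was at 2.97, 3.35 and 3 FPKM in WT and at 4.22, 2.2 and 1.78 FPKM in TAC4L-KO. It was at 1.83, 4.06 and 2.86 FPKM in TAC4-KO and at 3.23, 2.42 and 2.86 FPKM in the double-KO. The 4 genotypes overlapped, and their means ran from 2.73 ± 1.3 FPKM in TAC4L-KO to 3.1 ± 0.214 in WT (SD, n = 3 each). The single mutants held both the highest and the lowest library. In double-KO against WT the change was -0.1 (95% interval -0.67 to 0.46, limma adjusted p = 0.77), an interval that leaves room for changes of moderate size either way.

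PCNA (LOC_Os02g56130), the sliding clamp of DNA replication, was at 10.9, 12 and 24.6 FPKM in WT and at 15.8, 11.5 and 8.8 FPKM in TAC4L-KO. It was at 6.26, 11.6 and 10 FPKM in TAC4-KO, whereas the double-KO libraries were at 19, 19.8 and 19.8 FPKM. The double-KO lay above both single mutants without overlap, as 14.7% of tested genes did for TAC4-KO and 17.3% for TAC4L-KO, and WT replicate 3 was higher than any double-KO library. The double-KO had the tightest values of PCNA, with 19.5 ± 0.474 FPKM, and WT the widest, with 15.8 ± 7.65 (SD, n = 3 each).

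PCNA rose by 1.03 in double-KO against TAC4-KO (SE 0.31, 95% interval 0.36 to 1.7, limma adjusted p = 0.042), a 2.1-fold difference of means. It was the 1 member called of 5 in that comparison, where 15% of all genes were called and 4.88% were higher. The call was lost with no filter (adjusted p = 0.078) and without any 1 of 6 libraries, namely TAC4L-KO replicate 2, TAC4-KO replicates 1 and 3 and the 3 double-KO libraries, with limma changes of 0.8 to 1.1 and adjusted p of 0.06 to 0.17. Against TAC4L-KO the difference was 0.69 (limma adjusted p = 0.1), which passed under median-of-ratios scaling (0.91, adjusted p = 0.04), under quantile normalization (0.9, adjusted p = 0.042), without WT replicate 3 (adjusted p = 0.04) and with only the 2 groups in the fit (adjusted p = 0.037). Against WT the difference was 0.38 (limma adjusted p = 0.33), and 0.73 without WT replicate 3 (adjusted p = 0.045).

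The interaction for PCNA was 1.34 (SE 0.43, 95% interval 0.4 to 2.29, limma adjusted p = 0.057), with the single mutants at -0.65 and -0.31 against WT and the double-KO at 0.38. It passed the threshold under median-of-ratios scaling (1.6, adjusted p = 0.033), under quantile normalization (1.56, adjusted p = 0.036), without TAC4L-KO replicate 1 (1.55, adjusted p = 0.037) and without WT replicate 1 (1.55, adjusted p = 0.04). None of the 5 tested members was called for the interaction in the main fit, where 15.1% of all genes were, and 2 of them, PCNA and CDKB1, had an unadjusted limma p under 0.05. Between the single mutants none of the 5 was called, where 3.04% of all genes were.

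The members also varied within genotypes, and some of them varied together. TAC4-KO replicate 1 had the lowest value of its group for 6 of the 8 genes (the 3 cyclins, both CDKB genes and PCNA), and TAC4-KO replicate 2 the highest for 5 (CYCB1;1, CYCB2;1, CDKB1, CDKB2 and PCNA). TAC4L-KO replicate 3 was lowest for 5, and TAC4L-KO replicate 1 highest for 5. WT replicate 3 was highest for CYCB2;1, CDKB1, CDKA2 and PCNA and lowest for none. WT replicate 1, the library with the lowest inferred depth, was lowest for 5. Double-KO replicate 2 was lowest for 5 and highest for the other 3. After the group means were removed, the deviations of PCNA and CDKB1 had a Pearson r of 0.83 over the 12 libraries, those of PCNA and CYCB2;1 0.83, and those of CDKB1 and CDKB2 0.69. CDKA1 ran the other way from CDKB1, with r = -0.55. Over all 28 pairs the median r was 0.2, and 20 were above 0. These are descriptions, since the genes share libraries and depth, and no such values were computed for other genes.

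**Figure D3:**
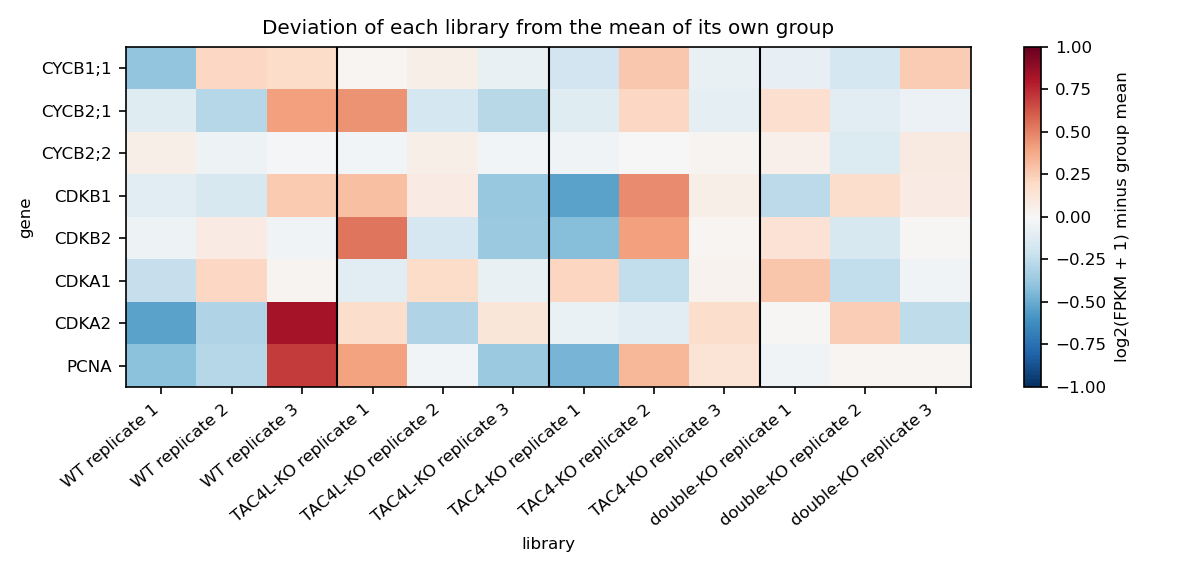
Deviation of log2(FPKM + 1) from the mean of the library's own group (colour, from -1 to 1) for the 8 genes (rows) in the 12 libraries (columns), with lines between groups. TAC4-KO replicate 1 lies below 0 for the cyclins, both CDKB genes and PCNA, TAC4-KO replicate 2 lies clearly above 0 for the same genes other than CYCB2;2, and WT replicate 3 is darkest for CDKA2 and PCNA.

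The mean standardised pattern of the 5 mitotic members (the 3 cyclins, CDKB1 and CDKB2) gave each gene equal weight. The 3 cyclins had few fragments, so their counting error enters it in full. The pattern was lowest in TAC4-KO replicate 1, at -1.35 SD units. It was highest in WT replicate 3, at 0.84, and double-KO replicate 3, at 0.81. The loci most like it over the 12 libraries were LOC_Os04g52290 (Pearson r = 0.95), LOC_Os05g28750 (0.94), LOC_Os10g41470 (0.92) and LOC_Os03g40180 (0.91). These were the highest of 19179 values, a choice that by itself favours a high r. Only loci that passed the filter were ranked, with the members left out. None of the other cell cycle or marker genes that passed it was among the 200 loci most like the pattern. The listed genes that missed the filter could not appear there.

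Beyond the 8 members, 31 further cell cycle genes were listed, and 21 of them passed the filter. In double-KO against WT, 4 were higher and 8 lower, which is 57.1% of those tested beside 47.4% of all genes (20.1% higher, 27.3% lower). In TAC4-KO against WT 5 were higher and 2 lower (33.3%, beside 18.4% higher and 16.5% lower of all genes), and in TAC4L-KO against WT 2 were higher and 1 lower (14.3%, beside 3.68% higher and 3.5% lower). The last count fell to 0 without TAC4L-KO replicate 2 or replicate 3 and to 1 without WT replicate 3, and the TAC4-KO count fell to 4 without TAC4-KO replicate 3. The count for the double-KO stayed within 1.5 times of 12 in every setting.

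Of the other mitotic genes, 3 of 6 passed the filter, and in double-KO against WT 0 were higher and 2 lower. WEE1, a kinase that inhibits cyclin-dependent kinases, had 7.84 ± 1.19 FPKM in WT and 4.44 ± 0.98 in the double-KO (SD, n = 3 each), and fell by 0.71 (limma adjusted p = 0.0069). CKS1, a small subunit that binds these kinases, changed by 0.23 (limma adjusted p = 0.35). CDKA1 and WEE1, a kinase and its inhibitor, were thus both lower in the double-KO.

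Of the replication genes, 4 of 10 passed the filter, and in double-KO against WT 2 were higher and 0 lower. MCM2, a subunit of the replicative helicase, was at 0.445, 2.35 and 2.16 FPKM in WT and at 2.24, 1.6 and 2.26 FPKM in the double-KO, a change of 0.28 (limma adjusted p = 0.44) that became -0.11 without WT replicate 1. The 5 other helicase subunits averaged 0.0757 to 0.315 FPKM and, like the cyclins, were not tested. Summed over MCM2 to MCM7, the 3 double-KO libraries had 3.89 to 4.76 FPKM, above the 0.589 to 3.71 of WT, the 1.73 to 1.84 of TAC4L-KO and the 1.18 to 1.61 of TAC4-KO. Taken singly, MCM2, MCM3, MCM4 and MCM7 overlapped between double-KO and WT, and only MCM5 and MCM6 did not. The untested MCM5 averaged 0.597 FPKM in the double-KO and 0.0927 in WT, and the untested MCM6 0.907 and 0.182. How often sums of other genes separate in this way was not computed. Of the replication genes outside the sum, 2 were those called higher. The others, ORC1 and LOC_Os01g63710, averaged 0.189 and 0.87 FPKM in the double-KO against 0.402 and 1.05 in WT. PCNA, which had its lowest double-KO library above all single-mutant libraries, shared the order of the sum, except that WT replicate 3 exceeded the double-KO for PCNA.

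Of the genes that act before replication, the D-type cyclins, the CDK-activating kinase and the retinoblastoma-related and E2F proteins, all 9 passed the filter, and in double-KO against WT 1 was higher and 4 lower. RBR1, a repressor of E2F factors, was at 3.97, 12.1 and 13.3 FPKM in WT and at 4.99, 4.62 and 5.22 FPKM in TAC4L-KO. It was at 0.275, 0.454 and 0.218 FPKM in TAC4-KO and at 0.216, 0.231 and 0.61 FPKM in the double-KO. RBR1 therefore divided the genotypes in the same place as CDKA1. The share of tested genes that did so was not computed. Lower values without overlap were common, at 30.6% of tested genes in double-KO against WT and 22.9% in TAC4-KO against WT. RBR1 fell by 2.86 in double-KO against WT (SE 0.33, limma adjusted p = 6.7e-05) and by 2.9 in TAC4-KO against WT (limma adjusted p = 0.00031). CYCD4;2, a D-type cyclin, rose by 1.1 in the double-KO (limma adjusted p = 0.0016) and by 1.76 in TAC4-KO (limma adjusted p = 0.00043). It also rose by 1.1 in TAC4L-KO (limma adjusted p = 0.02), a call lost without TAC4L-KO replicate 2 or 3 or WT replicate 3 (adjusted p = 0.061 to 0.085) and with only those groups in the fit (adjusted p = 0.091). CDKD1, which activates other cyclin-dependent kinases, fell by 0.67 in the double-KO (limma adjusted p = 0.0061).

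Of the inhibitors of cyclin-dependent kinases, 5 of 6 passed the filter, and in double-KO against WT 1 was higher and 2 lower. EL2, an inhibitor of the SIAMESE class, had 207 ± 64.1 FPKM in WT and 50.4 ± 4.88 in the double-KO (SD, n = 3 each), and fell by 1.97 (SE 0.3, limma adjusted p = 0.00033). It also fell by 1.66 in TAC4-KO (limma adjusted p = 0.0021) and by 1.5 in TAC4L-KO (limma adjusted p = 0.021), the last of these not without TAC4L-KO replicate 2 (adjusted p = 0.072) or replicate 3 (adjusted p = 0.088). Among the Kip-related inhibitors, KRP5 fell by 1.02 in the double-KO (limma adjusted p = 0.0046) while KRP1 rose by 0.96 (limma adjusted p = 0.0032). The inhibitors thus moved in both directions.

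**Figure D4:**
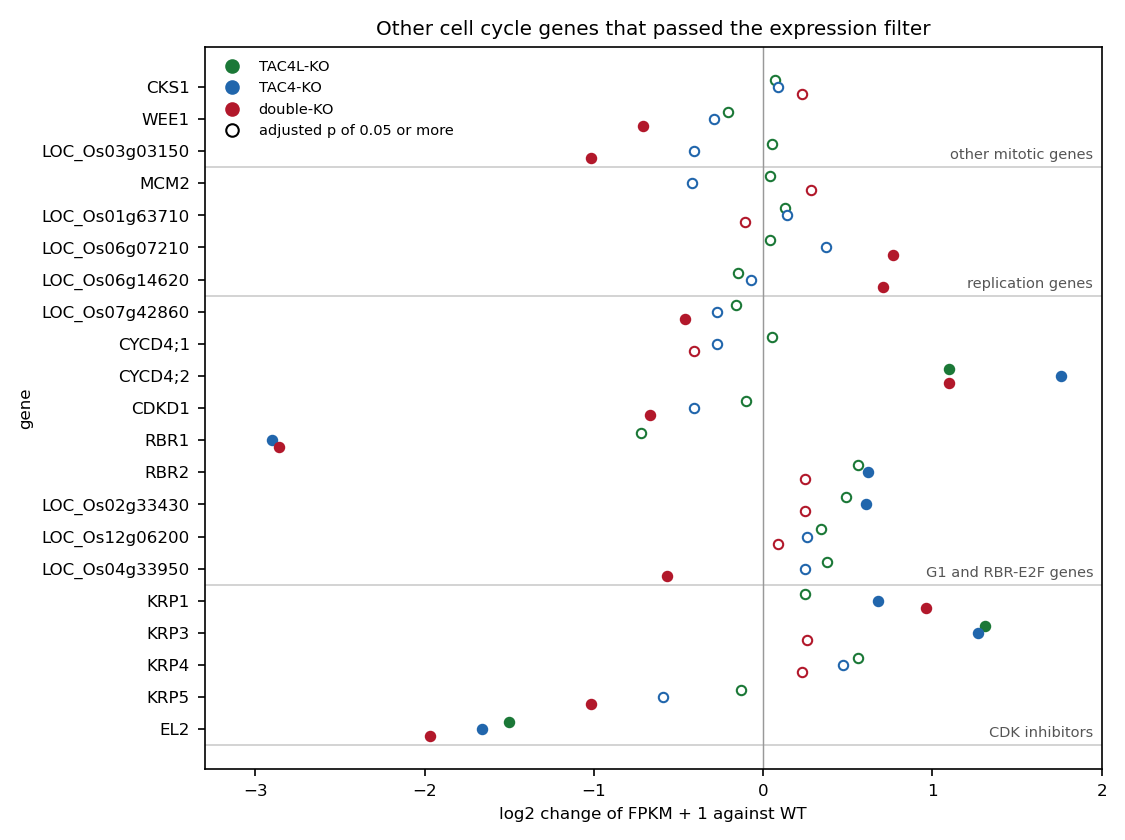
Log2 change of FPKM + 1 against WT (horizontal axis) for the 21 tested genes of the other cell cycle lists (vertical axis) in the 3 mutant genotypes (colours); filled points passed an adjusted p of 0.05 in limma, and loci whose name was not found in the reference are given by identifier. RBR1 lies at -2.86 in the double-KO and -2.9 in TAC4-KO, and the inhibitors EL2 (-1.97) and KRP1 (0.96) lie on opposite sides of 0.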

How the data were processed

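The deposited table held FPKM values for 12 culm libraries, computed by the authors. HISAT2 is named in the submitters' processing notes. How fragments were assigned to genes, the build, the annotation and the use of strand were not given in the sources used here, so overlapping, antisense or near-identical genes remain uncertain. No sequences or coordinates were used.

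The gene names are published rice names paired with loci by hand. Of the 55986 identifiers, 0 were in the reference (assembly ASM3414082v1). It held all 8 member names on the chromosome the locus states, 2 genes being called CYCB1;1, and 21 of the 31 other cell cycle names. Of the 16 marker names it held 15, all but LHCB (LOC_Os01g52240).

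Read counts were not used here. Depth (9.8 to 25.2 M fragments, a 2.58-fold range) and fragments per gene were inferred from the steps between low FPKM values, using 1636 genes. The step of CYCB2;2 may be less than 1 fragment. No 2 of the 66 library pairs were identical.

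The 19184 genes averaging 1 FPKM or more were tested on log2(FPKM + 1) with limma 3.58.1 in R 4.3.3 (trended prior, 4 group means, 8 residual degrees of freedom, 7 comparisons, Benjamini-Hochberg adjustment), and the tests were checked on simulated data. An exact permutation test of 3 against 3 cannot go below p = 0.1. Members, lists and tests were chosen with earlier results of these data known. Named beside the members were both targeted genes, up to 3 genes per other cell cycle list by smallest p in double-KO against WT whose name the reference holds, the marker genes, and the 4 loci most like the mitotic members. Alternatives were the pseudocount (0.1, 0.5), the filter (none, 5 FPKM), 2 other scalings, each library left out, a replicate block and fits of only the groups compared.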

Additional observations from a re-analysis of the deposited data

How the results depend on the processing

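Of 688 alternative values for the changes of the 5 tested members, 633 kept direction and side of the threshold, 13 lost a call, 17 gained one and 25 changed sign, 0 of them when called. The calls of CDKA1 in double-KO and in TAC4-KO against WT held throughout, at adjusted p of at most 0.013 and 0.043 (limma). Except where fewer libraries or genes entered, the cause of a change was not tested. CDKB2 has no value under the 5 FPKM filter. Of 356 alternatives for the other named genes, chosen after seeing the data, 343 kept direction and side.

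The number of members called in double-KO against TAC4-KO was 0 with no filter and 2 under either other scaling. Against TAC4L-KO, the double-KO had 2 with only those groups fitted, and the interaction had 2 under either other scaling. Leaving out 1 library gave 1 to 2 in double-KO against WT and in TAC4-KO against WT, 0 to 2 in both comparisons of the double-KO with a single mutant, and 0 to 1 for the interaction.

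Under quantile normalization CDKB2 was 0.12 in double-KO against WT, CDKA1 0.02 in double-KO against TAC4-KO, and CDKA2 0.04 in double-KO against TAC4L-KO, with 0.06 between the single mutants (0.05 under median-of-ratios scaling). With 1 library left out, CDKB2 ranged from -0.31 to 0.11 in TAC4-KO against WT, from -0.21 to 0.21 in double-KO against TAC4-KO, from -0.1 to 0.36 in double-KO against TAC4L-KO, from -0.12 to 0.35 between the single mutants and from -0.02 to 0.46 for the interaction. CDKA2 ranged from -0.68 to 0 in TAC4-KO against WT, from -0.66 to 0.03 in TAC4L-KO against WT, from -0.17 to 0.06 between the single mutants and from -0.24 to 0.44 for the interaction. PCNA ranged from -0.52 to 0.04 in TAC4L-KO against WT, CDKA1 from -0.06 to 0.21 for the interaction, and MCM2 from -0.11 to 0.5 in double-KO against WT.

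Scaling also moved the share of calls that were lower, as deposited, by median of ratios and by quantiles: 67.5%, 51% and 47.2% for the double-KO against TAC4-KO, 66.9%, 48.6% and 45.1% against TAC4L-KO, 72.7%, 50.8% and 54.2% for the interaction, and 48.8%, 64% and 51.5% for TAC4L-KO against WT. The median change of all genes moved most from -0.2 to 0.03 for the double-KO against TAC4L-KO and from -0.19 to 0.04 for the interaction.

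Replicate numbers were shared between groups only as labels: 3 of 18 same-numbered pairs had deviations correlated above 0.1 (-0.43 to 0.27), and a library's best match in another group bore its number in 10 of 36 cases. A replicate block left 0 members called in double-KO against TAC4-KO (PCNA 1.03, adjusted p = 0.066, limma) and took the genes called in TAC4L-KO against WT from 1378 to 665.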
